A study of Homo sapiens with 8 samples.

Results

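CS, FBXO21 and BLOC1S6 are 3 genes whose signal was lower in MMSET I knockdown cultures than in control cultures by nearly the same amount in each of 4 multiple myeloma cell lines. They were taken by their symbol in the platform annotation, which gave 1 row of the array table for each gene. They are 3 of 14812 named genes, and all of them were among the 11109 genes tested after dim genes had been left out. The 3 genes were picked for the size and the evenness of this difference, so the difference itself is described here and not tested.

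The 8 arrays came from KMS11, KMS18, KMS34 and OPM2, human plasma cell tumour lines that carry t(4;14) per the labels. The knockdown group, called ShMI, had 4 arrays of lentivirus-infected cultures in which MMSET I, an isoform encoded by the histone methyltransferase gene NSD2, was targeted by shRNA. The control group had 4 arrays, 1 from each line; the sources used here do not state what the control virus carried or which shRNA sequence was used. Infection was done in 8 µg/mL polybrene, per the labels' protocols, and RNA was taken 48 h after the medium was changed, while the text of the series states an shRNA treatment of 72 h. RNA was measured on Affymetrix Human Gene 2.0 ST arrays, and each line has 1 array per group, so that the 4 lines are the replicates and a single line has no test. A lower signal in a bulk culture can come from less RNA per cell or from fewer cells of a kind, and these cannot be told apart here.

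Citrate synthase, the product of CS, joins acetyl-CoA to oxaloacetate in the mitochondrial matrix and so opens the citric acid cycle. The product of FBXO21 is an F-box protein, the part of an SCF ubiquitin ligase that picks the substrate, while SKP1, CUL1 and RBX1 form the shared core of such ligases. BLOC1S6, also called pallidin, is a subunit of BLOC-1, a complex that sorts cargo from endosomes to lysosome-related organelles, and it binds the endosomal SNARE protein syntaxin 12. Loss of pallidin causes a form of Hermansky-Pudlak syndrome in humans and the pallid coat colour in mice. Plasma cells make and secrete large amounts of immunoglobulin, and draw on mitochondrial metabolism, ubiquitin-dependent degradation and endolysosomal traffic while doing so.

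Over the log2 values of the tested genes, the pair of arrays of a line correlated at 0.991 to 0.993, and arrays from separate lines at 0.880 to 0.915. NSD2, the targeted gene, had a mean intensity of 656 ± 75.9 in ShMI arrays and 743 ± 55.2 in control arrays (SD, n = 4 each). Its log2 difference of -0.18 did not pass limma's test (adjusted p = 0.472), and its row does not separate the isoforms. GLO1, the gene named in the series title, had a log2 difference of -0.76 (limma, adjusted p = 0.00142). Of 10 plasma cell markers 8 were tested, with a summed intensity of 7910 to 11345 in ShMI arrays and 8197 to 10954 in control arrays. Of 26 markers of T and NK, myeloid, and stromal or endothelial cells 9 were tested, and 0 of them passed limma's test or had an unadjusted p under 0.05.

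The CS signal was lower by 28.4% on average over lines (from the mean log2 difference). Its intensity in ShMI arrays was 663 in KMS34, 528 in OPM2, 505 in KMS11 and 488 in KMS18, against 915 in KMS34, 759 in OPM2, 704 in KMS11 and 671 in KMS18 in control arrays. Every ShMI array lay below every control array, and KMS34 was the brightest line in both groups. CS averaged 546 ± 79.6 in ShMI arrays and 762 ± 108 in control arrays (SD, n = 4 each). The log2 difference, ShMI minus control, was -0.46 in KMS34, -0.52 in OPM2, -0.48 in KMS11 and -0.46 in KMS18, with a mean of -0.48 and an SD of 0.029. In percent, the ShMI signal was 27.2% to 30.4% below that of the control culture of the same line.

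FBXO21 behaved in the same way at a more uniform level. Its intensity in ShMI arrays was 196 in KMS34, 195 in OPM2, 176 in KMS11 and 187 in KMS18, against 262 in KMS34, 272 in OPM2, 237 in KMS11 and 255 in KMS18 in control arrays. Its groups did not overlap either, and the lines lay closer together within each group than they did for CS. The mean was 189 ± 9.12 in ShMI arrays and 257 ± 14.5 in control arrays (SD, n = 4 each). Log2 differences were -0.42 in KMS34, -0.48 in OPM2, -0.43 in KMS11 and -0.45 in KMS18, a mean of -0.44 with an SD of 0.026. The ShMI signal was 25.3% to 28.2% lower within lines.

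BLOC1S6 had the smallest difference of the 3 genes. Its intensity in ShMI arrays was 495 in KMS34, 429 in OPM2, 397 in KMS11 and 372 in KMS18, against 658 in KMS34, 558 in OPM2, 512 in KMS11 and 474 in KMS18 in control arrays. The groups overlapped, because the ShMI array of KMS34 was brighter than the control array of KMS18, whereas within every line the ShMI array was the lower one. BLOC1S6 averaged 423 ± 53.3 in ShMI arrays and 550 ± 79.7 in control arrays (SD, n = 4 each). The differences were -0.41 in KMS34, -0.38 in OPM2, -0.37 in KMS11 and -0.35 in KMS18, a mean of -0.38 with an SD of 0.026, or 21.5% to 24.8% less signal within lines.

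**Figure D1:**
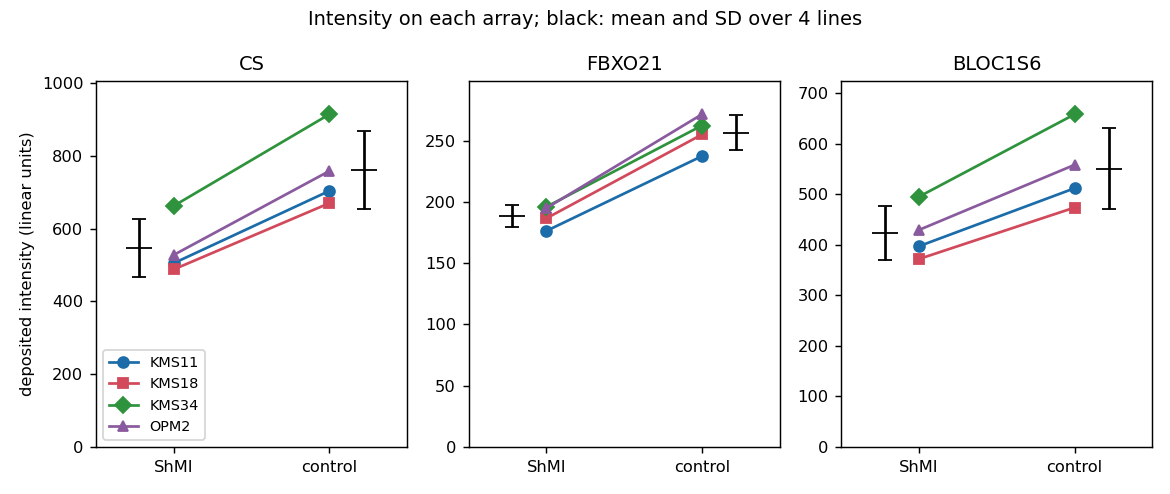
Deposited intensity (linear units, axis from 0) of CS, FBXO21 and BLOC1S6 on the 8 arrays, with ShMI left of control and a line joining the 2 arrays of each cell line. Black bars give the mean and SD over 4 lines; the joined lines run nearly parallel in each panel, and only for BLOC1S6 do the groups overlap.

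The groups did not overlap, with ShMI lower, for 2 of the 3 genes, CS and FBXO21, and for 0.234% of all tested genes. In limma's fit across all genes with cell line as a block, the adjusted p was under 0.05 for 3 of the 3, against a background of 0.117% in either direction (13 genes) and 0.099% lower (11 genes). All 3 were below control in 4 of 4 lines, as 8.76% of tested genes were. With any line left out, and without the block, 0 of the 3 had an adjusted p under 0.05, and with a random block or without a filter on dim genes 2 had. Nothing is read from these counts, since the genes were picked from this comparison.

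The evenness that led to the choice can be placed among the other genes. The SD of the log2 difference over 4 lines was 0.026 for FBXO21, 0.026 for BLOC1S6 and 0.029 for CS, against a median of 0.129 over the tested genes. These small SDs move with the setting. FBXO21 had 0.045 under quantile normalization, and BLOC1S6 0.039 with arrays centred on their medians. With a line left out, CS had from 0.011 (without OPM2) to 0.036 (without KMS11). FBXO21 had from 0.015 (without OPM2) to 0.031 (without KMS18), and BLOC1S6 from 0.015 (without KMS34) to 0.032 (without OPM2). The SDs with a line left out rest on fewer lines. By the SD of the values as deposited, counted from the smallest, FBXO21 ranked 90, BLOC1S6 97 and CS 135 of 11109. By mean difference, counted from the lowest, CS ranked 4, FBXO21 7 and BLOC1S6 16. As many as 20 genes had a mean difference at least as large in size as that of BLOC1S6, in either direction, and these 3 had the smallest SDs among them. The next in that order was KLF9, a transcription factor gene, with an SD of 0.080 around a mean of -0.40, followed by POLR3G with 0.101 around -0.53. The rule named no limit for the SD, and the cut for size was set here by BLOC1S6 itself. Just short of that cut, SMIM13 had an SD of 0.051 around -0.36 and TNPO1 0.061 around -0.34. Both SDs were smaller than that of KLF9.

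**Figure D2:**
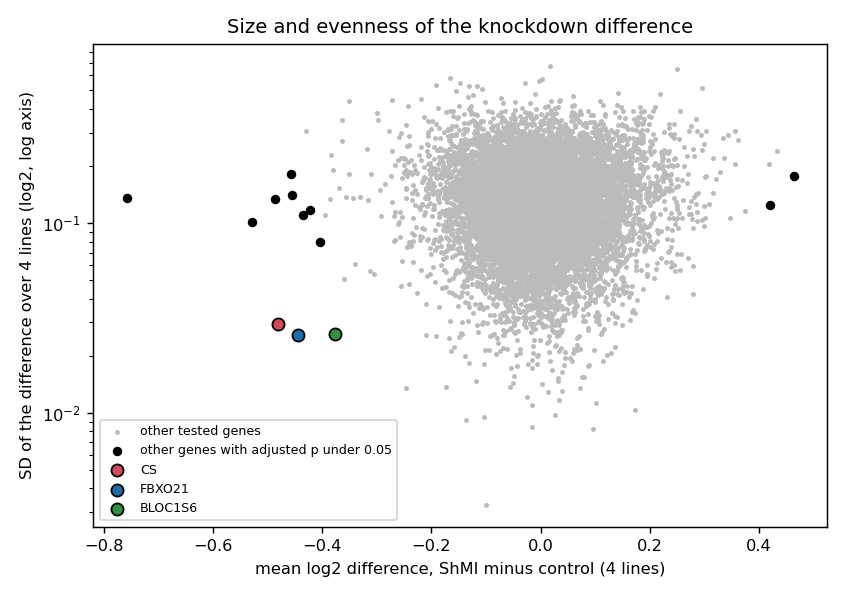
Mean log2 difference, ShMI minus control (x axis), against the SD of that difference over 4 lines (y axis, log scale) for the tested genes. The 3 coloured points for CS, FBXO21 and BLOC1S6 lie at SDs of 0.026 to 0.029, under the black points for the other genes with a limma adjusted p under 0.05.

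The level of each gene across lines was not used in the choice. The order of line means over both arrays was KMS34, OPM2, KMS11, KMS18 for CS and was the same for BLOC1S6. The brightest line stood 1.36-fold above the dimmest for each of these 2 genes, a log2 span of 0.44 each, and the median span over the tested genes was 0.516. For FBXO21 the order was OPM2, KMS34, KMS18, KMS11, with a log2 span of 0.17 (1.12-fold), which was smaller than in all but 6.82% of tested genes.

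Because the residual of these genes is the very spread they were picked for, gaps between lines were set against 2 times the residual SD typical of all genes (0.196 on the log2 scale). KMS34 lay above OPM2 by 0.30 for CS and by 0.22 for BLOC1S6, both beyond that spread. The other neighbouring lines lay within it, as did every neighbouring pair for FBXO21. Under quantile normalization no gap between neighbouring lines passed it for any of the 3 genes: KMS34 lay above OPM2 by 0.19 for CS and by 0.089 for BLOC1S6, and KMS18 came before KMS11 in both. The span of FBXO21 then widened to 0.34. The order of the lines is thus a description of the values as deposited.

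**Figure D3:**
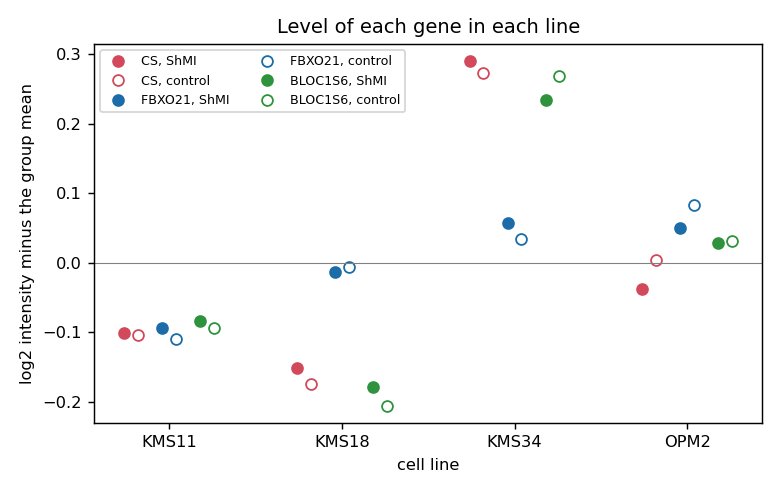
Log2 intensity of each gene in each cell line minus the mean of its group, for ShMI arrays (filled) and control arrays (open). For CS and BLOC1S6 both KMS34 arrays lie highest and both KMS18 arrays lowest, while FBXO21 varies less between lines.

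Among each other, CS and BLOC1S6 had the most similar levels, with a Pearson r of 0.986 over the log2 values of 8 arrays. CS and FBXO21 had an r of 0.869, and FBXO21 and BLOC1S6 one of 0.824. These values share the drop in the same 4 ShMI arrays and rest on 4 pairs of arrays, so they only describe them. Within the ShMI arrays and within the control arrays alike, the lines came in the same order for CS and for BLOC1S6 (r 0.966 and 0.993). Within the same groups, r fell to 0.627 and 0.458 for CS and FBXO21. It fell to 0.670 and 0.467 for FBXO21 and BLOC1S6. For r over 8 arrays and for the next measure, tested genes with symbols of small RNAs or LOC symbols were left out. Of the others, BLOC1S6 was the one most like CS by this measure, ahead of DMRT1 (0.936) and DAXX (0.930). CS was the one most like BLOC1S6, ahead of DAZAP1 (0.939) and CCDC124 (0.927). The genes most like FBXO21 were NODAL (0.913), JAKMIP1-DT (0.901) and STARD8 (0.901). These are dim rows, with mean intensities of 59.3, 47.7 and 60.7 in ShMI arrays and 73.1, 49.5 and 66.8 in control arrays. DMRT1 had 66.7 and 71.6, and the filter on dim genes cut at 46.7.

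Likeness of the differences was measured by the largest gap, over 4 lines, between the log2 differences of a pair of genes. The 3 genes were picked on these same differences, so that they lie near each other follows from the choice. FBXO21 was nearest to CS, with no line further apart than 0.050, and POLR3G (0.113) and RRP1B (0.134) came after it. For FBXO21 the nearest genes were CS, BLOC1S6 (0.102) and RRP1B (0.116). For BLOC1S6 they were SMIM13 (0.069), FBXO21 (0.102) and the nuclear import receptor gene TNPO1 (0.112). SMIM13, which encodes a small membrane protein, had a mean difference of -0.36 (limma, adjusted p = 0.0555) and TNPO1 one of -0.34 (0.0848). Neither passed over all genes.

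Of the rest of the citric acid cycle, genes of NAD-dependent isocitrate dehydrogenase and of the oxoglutarate dehydrogenase complex were tested. Their drops were smaller than that of CS, which was picked for the size of its drop. Of 17 enzymes of the cycle besides CS, 6 were tested, and 0 passed limma's test (smallest adjusted p = 0.575). Of the 6 means, 5 were below 0 and 1 above, beside 51.6% below 0 over all tested genes. The 3 subunit genes of NAD-dependent isocitrate dehydrogenase had differences of 0.03 (IDH3A), -0.11 (IDH3B) and -0.08 (IDH3G). In the oxoglutarate dehydrogenase complex, OGDH had -0.02, DLD -0.11 and DLST -0.17. DLST alone had an unadjusted p under 0.05 (0.0322), and was lower in 3 of 4 lines. The median of the list was -0.091, against -0.0033 over all tested genes, and the other 11 enzymes, the aconitase and malate dehydrogenase steps among them, were not analysed here.

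Genes that feed or use citrate gave 0 calls among 12 tested of 26, with a median of -0.064 and 0 at an unadjusted p under 0.05. Of their means, 9 were below 0 and 3 above. The largest differences were those of MPC2 (-0.15) and MPC1 (-0.10), the subunits of the mitochondrial pyruvate carrier, of the fatty acid synthase gene FASN (-0.13) and of CSKMT (-0.13). CSKMT encodes the methyltransferase that modifies a lysine of citrate synthase; its mean intensity was 81.0 in ShMI arrays and 88.4 in control arrays. ACLY, which cleaves citrate in the cytosol, had a difference of -0.04.

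For FBXO21, the shared SCF machinery gave 0 calls among 7 genes tested of 16, with a median of -0.038 and 0 at an unadjusted p under 0.05. The median was -0.065 without KMS18, -0.019 without KMS34 and -0.084 without OPM2. The scaffold gene CUL1 had a difference of -0.09, the exchange factor gene CAND1 -0.03 and COPS5, which encodes the subunit that removes NEDD8 from cullins, -0.10. NAE1 and UBA3, the subunits of the NEDD8-activating enzyme, had -0.08 and 0.00, and the ubiquitin-conjugating enzyme genes CDC34 and UBE2R2 had 0.06 and -0.04.

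Other F-box genes centred on 0. Of 64 genes 49 were tested, with 27 means below 0 and 22 above, a median of -0.0039 and 0 calls. That median lay above 0 without KMS34 (0.012), without OPM2 (0.012) and under quantile normalization (0.0016). At an unadjusted p under 0.05 were 0 genes lower and 4 higher, FBXO10 (0.15), FBXO28 (0.15), FBXW8 (0.15) and BTRC (0.13), beside 4.15% lower and 4.26% higher of all tested genes. The lowest of the 49 was FBXO45, at -0.17, against -0.44 for FBXO21, which was picked for the size of its drop. Among 3 proteins described as FBXO21 substrates, 2 had a tested gene. MAP3K5, the stress kinase ASK1, had intensities of 357, 561, 219 and 339 in ShMI arrays and 287, 481, 172 and 287 in control arrays of KMS11, KMS18, KMS34 and OPM2. It was thus higher in 4 of 4 lines, by 0.28 on the log2 scale, but did not pass over all genes (limma, adjusted p = 0.203, unadjusted 0.00070). EID1, a differentiation inhibitor, had a difference of 0.03.

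For BLOC1S6, 4 of the 7 other BLOC-1 subunits were tested and 0 passed. SNAPIN had a difference of 0.11, the dysbindin gene DTNBP1 0.04, BLOC1S5 0.03 and BLOC1S4 -0.11. Their median was 0.035, and -0.0066 without KMS11, and the smallest adjusted p was 0.727. BORC, a lysosome positioning complex that shares subunits with BLOC-1, was represented by KXD1 (0.04) and BORCS6 (0.04). Of BLOC-2, BLOC-3, AP-3 and related genes 7 of 16 were tested, with 0 calls and differences between HPS5 (-0.07) and HPS1 (0.08), while HPS3 had 0.05, HPS6 0.04, HPS4 0.03, LYST 0.02 and VPS33A -0.02.

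Endolysosomal SNARE genes gave 0 calls among 6 tested of 10. STX12, the binding partner of pallidin, had a difference of 0.00, with a mean intensity of 144 in ShMI arrays and 145 in control arrays. STX7 and VTI1B had 0.15 each and were higher in 4 of 4 lines (limma, adjusted p = 0.572 and 0.568). STX8 had 0.02, VAMP7 -0.02 and VAMP8 -0.03. Over all 9 lists, 95 genes were tested, 0 passed in either direction, and 1 lower and 7 higher had an unadjusted p under 0.05, against a background of 8.41% of tested genes (4.15% lower and 4.26% higher). The lowest of the 95 means was -0.17, while the smallest drop among the 3 genes was -0.38. The 3 genes were picked for the size of their drop, and BLOC1S6 ranked 16 of 11109 from the lowest. Nothing is read from this gap.

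**Figure D4:**
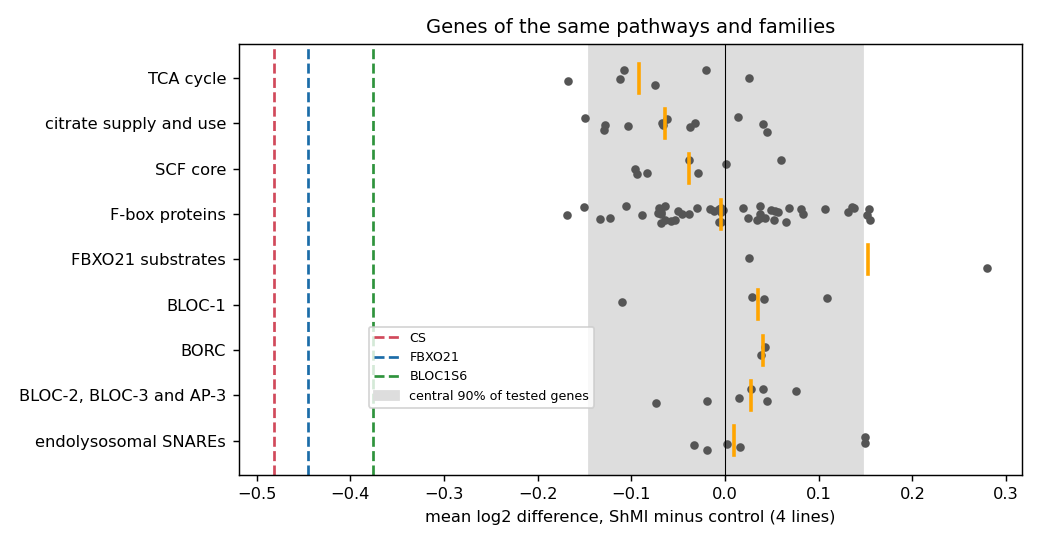
Mean log2 difference, ShMI minus control, over 4 lines for the tested genes of 9 lists (points), with the median of each list (orange). Dashed lines mark CS, FBXO21 and BLOC1S6, picked for the size of their drop, at -0.48, -0.44 and -0.38, to the left of every listed gene. The grey band holds the central 90% of tested genes.

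Neighbouring genes were examined because CS and FBXO21 both lie on chromosome 12, while BLOC1S6 lies on chromosome 15. In the order of the RefSeq gene table, the 5 nearest tested genes on each side of each gene gave 30 neighbours, of which 0 passed lower and 1 passed higher. At an unadjusted p under 0.05 were 2 lower and 3 higher of the 30, beside 4.15% lower and 4.26% higher of all tested genes. COQ10A and CNPY2, with no annotated gene between them and CS, had differences of -0.03 and -0.02. NOS1 next to FBXO21 had -0.01 and TESC, on its other side, 0.02. SQOR next to BLOC1S6 had -0.04, and AFG2B, 11 annotated genes away on the other side, 0.03.

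The neighbour that passed was ANKRD52, which encodes a regulatory subunit of protein phosphatase 6 and is separated from CS by COQ10A alone. Its intensity in ShMI arrays was 208 in KMS34, 283 in OPM2, 506 in KMS11 and 248 in KMS18, against 168 in KMS34, 178 in OPM2, 343 in KMS11 and 199 in KMS18 in control arrays. It was higher in 4 of 4 lines, though the groups overlapped, by a mean of 0.46 on the log2 scale (standard error 0.075; limma, adjusted p = 0.0422). CS, ANKRD52 and the gene between them thus had differences of -0.48, 0.46 and -0.03. ANKRD52 is 1 of the 2 genes (0.018%) that passed higher in the whole table. Its call was lost when any line was left out, with adjusted p between 0.0961 and 0.265 and a difference of 0.40 to 0.52. It was lost as well with cell line as a random block, at an estimated correlation (adjusted p = 0.337), without a filter on dim genes (0.147) and without a block.

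The 2 neighbours lower at an unadjusted p under 0.05 are named after their values were seen. LINC00173, the fourth tested gene from FBXO21 on the side of TESC, had -0.36 and was lower in 3 of 4 lines (limma, adjusted p = 0.257). NABP2, near CS, had -0.21 and was lower in 4 of 4 lines (0.447). The 3 neighbours higher at that threshold were ANKRD52, FBXW8, also counted among the F-box genes, and GATM. GATM, near BLOC1S6 and likewise named after its value was seen, had 0.19 and was higher in 4 of 4 lines (0.453). The SD of the difference over lines was 0.269 for LINC00173 and 0.140 for NABP2, against a median of 0.129 over the tested genes.

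**Figure D5:**
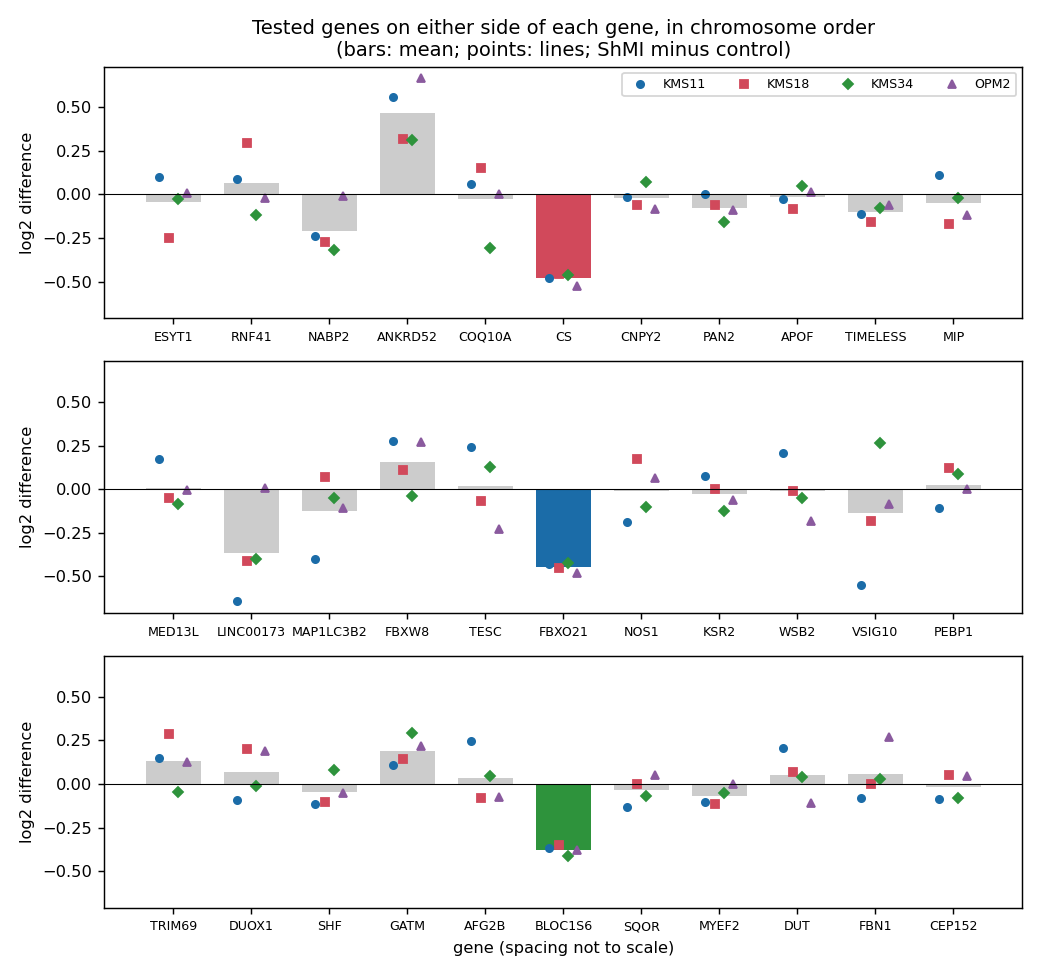
Log2 difference, ShMI minus control, of CS, FBXO21 and BLOC1S6 (coloured bars) and of the 5 nearest tested genes on each side (grey bars), in chromosome order and not to scale; points are the 4 cell lines. The 4 points of each coloured bar lie close together, and ANKRD52 near CS stands at 0.46.

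Promoter sequences of the 3 genes are shown because the genes moved by like amounts, and to see whether they share short motifs. They are the 250 bases upstream of the first annotated start, from RefSeq on GRCh38.p14, printed 5′ to 3′ on the strand of the gene. They lie at chr12:56300331-56300580 (minus strand) for CS, chr12:117190471-117190720 (minus strand) for FBXO21 and chr15:45586873-45587122 (plus strand) for BLOC1S6. BLOC1S6 has 4 annotated starts in the table, of which the most upstream is used. Capitals mark, on either strand, the motifs GGGCGG of the SP1 box, CCAAT of the box of that name, CCGGAAG of ETS factors and TGACG of the CRE core, and no marked stretch overlaps another.
CS: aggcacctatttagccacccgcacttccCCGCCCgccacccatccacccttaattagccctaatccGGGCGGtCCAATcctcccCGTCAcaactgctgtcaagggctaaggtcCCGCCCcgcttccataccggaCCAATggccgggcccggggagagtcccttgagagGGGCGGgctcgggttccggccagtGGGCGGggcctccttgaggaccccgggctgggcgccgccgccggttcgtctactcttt
FBXO21: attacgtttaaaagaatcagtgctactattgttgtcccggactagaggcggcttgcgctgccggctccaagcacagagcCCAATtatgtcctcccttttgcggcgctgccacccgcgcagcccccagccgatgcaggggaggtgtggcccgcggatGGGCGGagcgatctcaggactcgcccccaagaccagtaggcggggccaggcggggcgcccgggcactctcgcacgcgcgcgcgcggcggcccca
BLOC1S6: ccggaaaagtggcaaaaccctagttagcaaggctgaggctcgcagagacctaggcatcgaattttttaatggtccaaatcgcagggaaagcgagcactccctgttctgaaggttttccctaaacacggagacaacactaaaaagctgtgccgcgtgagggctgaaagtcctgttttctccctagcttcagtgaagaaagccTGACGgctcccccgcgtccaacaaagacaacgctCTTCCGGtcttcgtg

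None of the 8 motifs searched was in all 3 windows. GGGCGG was found 5 times for CS, 1 time for FBXO21 and 0 times for BLOC1S6, and 42.2% of 27305 windows of the same length, 1 for each gene in the table, hold it. CCAAT was found 2 times for CS and 1 time for FBXO21 (33.0% of windows), TGACG 1 time each for CS and BLOC1S6 (21.6%), and CCGGAAG 1 time for BLOC1S6 (8.78%). The letters CACGTG (E-box), TGCGCA (NRF1 core), TATAAA (core promoter box) and AAGATGG (YY1 core), held by 3.77% to 11.2% of windows, were in none of the 3. The CS and FBXO21 windows were GC-rich, with 67.6% G or C each and 21 and 27 CpG pairs. That of BLOC1S6 had 52% and 14 pairs, against medians of 57.6% and 10 pairs over all windows. A match in these letters is a description of the window and says nothing of binding.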

How the data were processed

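The table that the authors deposited holds a linear intensity for each transcript cluster on each array. GeneSpring is named in the series text; the sources used here do not state how background, scaling and summarization were handled. The unit was judged from the values (lowest 18.9 to 19.0 on the 8 arrays), whose upper quartiles of 107.6 to 109.3 point to a common scaling that would hide a shift of all genes. Detection calls were not used here, and the number of arrays limits the precision.

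Of 44629 rows, 15835 carried 1 gene symbol. The remaining 28794 were treated as unnamed here, as any row with several symbols would have been. A gene was represented by its brightest row, and genes under the 25th percentile of mean log2 intensity (5.54) were left out. Log2 values were fitted with limma 3.58.1 in R 4.3.3 (lmFit, eBayes) with the line as fixed block and Benjamini-Hochberg adjustment over 11109 genes, threshold 0.05. The line pairs the arrays per the labels. Across genes, deviations from the group means correlated at 0.925 to 0.932 between the arrays of a line. Between lines they correlated at -0.135 or below. Subtracting the group means pushes the values between lines below 0, so nothing is read from their sign. The fit was tested on simulated data. The replicates are lines with 1 culture pair each.

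The 3 genes and the lists were chosen with earlier results of these data known. Named genes were the 3 genes, NSD2, GLO1, the nearest and any called neighbours, and 3 genes per measure of likeness. In each list they were the called genes or otherwise the 4 largest differences (all genes for lists under 8). ACLY, BTRC, LINC00173, NABP2, GATM and KLF9 were added after their values were seen. Alternatives were other scalings, an offset, other filters, the mean of rows, leaving out each line, other blocks and other eBayes settings. Protein sequences were not used here.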

Additional observations from a re-analysis of the deposited data

Results flagged for a closer look

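In a group of 4 lines, 1 value was far from the other 3 for 4 of 83 values tested, and chance gives about 1 in 20. The log2 difference of BLOC1S4, the BLOC-1 subunit gene, was -0.376 in OPM2 and between -0.04 and 0.02 in the other lines. That of IDH3A was 0.254 in KMS11 and below 0 in the other lines. FBXO10 stood at 0.221 in KMS11, above 0.12 to 0.14 in the others, and DAXX at -0.219 in OPM2. CS, FBXO21 and BLOC1S6 had no such line in the intensities of either group. They had none in the differences either, but these were picked for their evenness, so nothing is read from that.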

How the results depend on the processing

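The mean differences of CS, FBXO21 and BLOC1S6 kept their sign under every alternative run. Of 24 values, 1 moved by more than the spread over lines: with 16 added to each intensity before log2, FBXO21 had -0.414. Part of this was fixed in advance. With every line lower for each gene, leaving out a line could neither change the sign nor move the mean beyond that spread. With 1 row per gene, the mean of rows could change nothing. The median shift of all genes between settings stayed under 0.1. The number of genes called over the whole table was 13, and became 21 with the offset of 16, 29 with eBayes trend and robust, 4 without a filter on dim genes, 3 with cell line as a random replicate block and 0 with no replicate block, where 18 genes had an unadjusted limma p under 0.05. With each line left out it was 1 to 2, and 0 of the 3 genes were called in any of these 4 fits. All 3 were called under quantile normalization, median centring, the offset, the 50th percentile filter, the mean of rows and eBayes trend and robust, 2 without a filter and with the random block, and 0 without a block. Of the neighbours of CS, 1 was called, and 0 without a filter, with no replicate block, with a random replicate block and with any line left out. The counts of the 9 pathway and family lists and of the neighbours of FBXO21 and BLOC1S6 stayed at 0 under all alternatives run; the marker lists were not recomputed. The causes were not tested, but leaving out a line leaves fewer arrays, and with no block the differences between lines enter the residual. Signal over background was not used here, so what dim signal limits is not known.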
